A study of Mus musculus with 8 samples.

Results

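The transcripts described here encode 9 proteins of the NF-κB feedback circuit, which bind NF-κB, bind or edit the ubiquitin chains of its signaling proteins or shorten the life of inflammatory mRNAs, namely *Nfkbia*, *Nfkbie*, *Nfkb2*, *Nfkbiz*, *Bcl3*, *Tnfaip3*, *Tnip1*, *Zc3h12a* and *Zfp36*. They were taken by symbol as a list, and all 9 were present among the 23282 rows of the liver count data. The control group received saline and the endotoxemic group received lipopolysaccharide (LPS), the bacterial endotoxin, at 25 mg/kg. The LGK974 group received LGK974, an inhibitor of the acyltransferase PORCN, which Wnt ligands need for secretion. For this group the labels name LGK974 alone, whereas the study's text gives 60 mg/kg LGK974 together with 25 mg/kg LPS, with LGK974 given 2 h before LPS in most experiments and livers taken 6 h after LPS. All groups were labelled as C57BL/6 male mice of 4 weeks without a genetic change, and there was no group with LGK974 and without LPS, so that the drug alone cannot be told apart from the drug in endotoxemia.

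NF-κB is held in the cytoplasm by IκB proteins, and LPS sensing through Toll-like receptor 4 leads to the phosphorylation and breakdown of IκB, which frees NF-κB to enter the nucleus. Among the genes that NF-κB then switches on are its own inhibitors, so that the response limits itself. A further layer acts on the products, since inflammatory mRNAs carry AU-rich or stem-loop elements that recruit proteins which speed their decay. In the liver, Kupffer cells, endothelial cells, hepatocytes and incoming leukocytes all use this circuit. The libraries were made from whole liver, and fewer cells of a type cannot be told apart from less RNA per cell.

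Of 8 deposited libraries, endotoxemic libraries 3 and 4 had the counts of libraries 1 and 2 on every row and were counted once, which left 6 distinct libraries, 2 in each group. Their total counts ranged from 9142116 to 15222439, and a floor of 3 counts corresponded to between 0.197 and 0.328 CPM (counts scaled to the size of the library), which covers counting error only. The labels do not say whether the libraries of a group came from separate mice, so the p-values measure only the spread between these libraries. *Xist*, the RNA of the inactive X chromosome, had 1171 to 3115 counts in the control and endotoxemic libraries and 3 and 7 counts in the LGK974 libraries. The Y-linked *Ddx3y* had 1755 and 1392 counts in the LGK974 libraries and 0 in the other 4. The LGK974 libraries therefore differed from both other groups in sex-linked transcripts although all mice were labelled male. It is the control and endotoxemic libraries whose *Xist* and *Ddx3y* counts go against this label. In each comparison with the LGK974 group the difference in sex-linked transcripts cannot be told apart from the treatment.

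Before any change was read, the place of each member in the row order was compared with its place in the genome, because the rows otherwise follow the chromosomes. A row was taken to be in order when at least 2 of the 3 positioned rows on each side held genes within 2 Mb on the same chromosome. This held for 4 of the 9 members, *Nfkbia*, *Nfkbie*, *Bcl3* and *Zfp36*, each with 3 of 3 neighbours on both sides. *Nfkbia* lay between *Psma6* and *Aldoart2*, *Nfkbie* between *Tmem151b* and *Slc35b2*, *Bcl3* between *Cblc* and *Gm19345*, and *Zfp36* between *Plekhg2* and *Med29*. The other 5 members, *Nfkb2*, *Nfkbiz*, *Tnfaip3*, *Tnip1* and *Zc3h12a*, had none of 6 neighbours nearby. Of all rows, 21828 were in order and 515 had no neighbour nearby. Across the 478 rows with no neighbour nearby and at least 1 count, the rank correlation of the mean levels was 0.071 between the control and endotoxemic groups and 0.96 between the endotoxemic and LGK974 groups. Across the 16227 rows in order with at least 1 count these values were 0.899 and 0.965. Both are descriptions across genes, which are not independent replicates. Changes between groups are therefore given for the 4 members in order, and the counts alone for the other 5.

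The 4 members in order are described with the DNA before their start sites, since their changes differed and NF-κB binds a short κB consensus of 10 bases. The RefSeq windows used here, on GRCm38.p6, covered 8 of the 9 members, all but *Nfkbiz*, and the 250 bases before each start were searched on both strands for the κB consensus. A match stood in 3.9% of 32851 such windows. *Nfkbia* had 1 match, from 29 to 20 bases before the start, and *Nfkbie* had 1 match, from 106 to 97 bases before it. The windows of *Bcl3* and *Zfp36* held none, which says only that these letters are absent there. The windows of *Nfkbia* (chr12:55492648-55492897, minus strand), *Nfkbie* (chr17:45555450-45555699, plus strand) and *Bcl3* (chr7:19822756-19823005, minus strand) are shown 5′ to 3′ on the strand of the gene to set a κB match near the start, a match farther away and a window without one side by side. Capitals mark the match. For *Nfkbie* it lies on the strand shown, and for *Nfkbia* on the opposite strand, where it reads GGGAATTTCC.
Nfkbia: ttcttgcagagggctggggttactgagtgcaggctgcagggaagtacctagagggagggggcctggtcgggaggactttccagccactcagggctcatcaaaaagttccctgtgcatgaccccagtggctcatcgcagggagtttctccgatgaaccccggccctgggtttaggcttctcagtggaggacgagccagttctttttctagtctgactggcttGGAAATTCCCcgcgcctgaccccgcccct
Nfkbie: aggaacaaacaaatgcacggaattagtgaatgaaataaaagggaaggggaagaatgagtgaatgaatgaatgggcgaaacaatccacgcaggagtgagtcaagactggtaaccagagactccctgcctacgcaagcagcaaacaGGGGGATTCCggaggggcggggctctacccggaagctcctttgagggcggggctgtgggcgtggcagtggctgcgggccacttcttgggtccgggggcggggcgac
Bcl3: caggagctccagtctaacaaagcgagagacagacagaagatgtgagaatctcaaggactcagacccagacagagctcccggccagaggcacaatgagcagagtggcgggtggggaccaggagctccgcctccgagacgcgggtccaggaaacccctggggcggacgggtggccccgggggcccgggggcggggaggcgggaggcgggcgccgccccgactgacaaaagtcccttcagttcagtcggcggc
The window of *Zfp36* is not shown, since the GENCODE annotation places it inside an exon of a longer transcript. The last bases of the *Bcl3* window lie in its first exon in GENCODE. A match is a description of the sequence and not of binding.

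In the livers of the endotoxemic group, the transcripts of the 3 IκB family members in order rose, and *Zfp36* did not pass the test. The LGK974 group kept the IκB family members above the control group but had less *Zfp36* than either of the other groups. The test was edgeR's quasi-likelihood test with Benjamini-Hochberg adjustment over 12701 rows, and levels are normalized CPM, given as mean ± SD of n = 2 libraries. QuantSeq reads the 3′ end of each transcript, so levels were not divided by transcript length.

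*Nfkbia* encodes IκBα, the inhibitor that NF-κB restores fastest after its breakdown (ENSMUSG00000021025.8, chr12:55489410-55492647, minus strand). Control livers had 272 and 257 CPM, endotoxemic livers 1141 and 971 CPM and LGK974 livers 622 and 562 CPM. The 3 groups did not overlap, with the LGK974 libraries between the others. The means were 264 ± 10.8, 1056 ± 120 and 592 ± 41.8 CPM. The endotoxemic group was 4-fold above the control group (log2 difference 2.00, SE 0.19, adjusted p = 5.7e-05). The LGK974 group was lower than the endotoxemic group by a log2 difference of -0.83 (SE 0.19, 95% interval -1.26 to -0.41, adjusted p = 0.0382), and this call was lost without either endotoxemic library (adjusted p = 0.256 without library 1 and 0.178 without library 2) or either control library (0.107 and 0.106). It remained above the control group by 1.16 (SE 0.19, adjusted p = 0.00162).

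*Nfkbie* encodes IκBε, an IκB protein that is resynthesized later than IκBα and holds NF-κB in the cytoplasm (ENSMUSG00000023947.8, chr17:45555703-45563169, plus strand). It was the least abundant of the members in order, with 11 and 47 counts in control, 207 and 164 in endotoxemic and 240 and 190 in LGK974 livers. These counts correspond to 1.02 and 3.07 CPM, 22.6 and 17.5 CPM, and 18.1 and 12.9 CPM. Both treated groups lay above the control group and overlapped each other. The mean was 2.05 ± 1.45 CPM in the control and 20.0 ± 3.61 CPM in the endotoxemic group, and the fitted rise was 9.41-fold (log2 difference 3.23, SE 0.45, adjusted p = 0.000489). Without control library 2, which had the higher of the control levels, the rise was 4.28, and without control library 1 it was 2.7. The difference between the LGK974 and endotoxemic groups did not pass the test, with a log2 difference of -0.37 and a 95% interval of -1.26 to 0.52 (adjusted p = 0.615). Against the control group the LGK974 mean of 15.5 ± 3.72 CPM was higher by 2.86 (SE 0.45, adjusted p = 0.00129), and by 3.91 without control library 2 and 2.33 without control library 1.

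*Bcl3* encodes a nuclear IκB protein that binds p50 and p52 dimers on DNA and can repress or activate their targets (ENSMUSG00000053175.17, chr7:19808462-19822770, minus strand). The control libraries had 16.3 and 10.3 CPM, the endotoxemic libraries 93.4 and 63.6 CPM and the LGK974 libraries 39.4 and 71.4 CPM. The LGK974 libraries were far apart, and 1 of them lay between the endotoxemic libraries. The endotoxemic mean was 78.5 ± 21.1 CPM and the control mean 13.3 ± 4.25 CPM, with a fitted rise of 5.92-fold (log2 difference 2.57, SE 0.36, adjusted p = 0.000471). The LGK974 mean of 55.4 ± 22.6 CPM did not differ from the endotoxemic mean beyond this spread (log2 difference -0.50, 95% interval -1.25 to 0.25, adjusted p = 0.405). Without LGK974 library 2 the difference was -0.99 (adjusted p = 0.0499). Above the control group, the LGK974 group was higher by 2.06 (SE 0.35, adjusted p = 0.00205).

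*Zfp36* encodes tristetraprolin, which binds AU-rich elements of cytokine mRNAs such as that of TNF and recruits the deadenylation machinery (ENSMUSG00000044786.6, chr7:28376784-28380253, minus strand). Control livers had 54.7 and 73.9 CPM, endotoxemic livers 87.6 and 93.9 CPM and LGK974 livers 21.2 and 29.2 CPM. The groups did not overlap, and the LGK974 libraries were the lowest of all 6. The endotoxemic mean of 90.8 ± 4.45 CPM and the control mean of 64.3 ± 13.6 CPM gave a log2 difference of 0.50 (SE 0.23, 95% interval -0.03 to 1.02, adjusted p = 0.115). This difference passed the test when only those groups were fitted (0.53, adjusted p = 0.0241) and without LGK974 library 1 or 2 (adjusted p = 0.0297 and 0.0314). In the LGK974 group the mean of 25.2 ± 5.63 CPM was 0.278 of the endotoxemic mean (log2 difference -1.85, SE 0.24, 95% interval -2.39 to -1.30, adjusted p = 0.00524), with an adjusted p of 0.0665 without endotoxemic library 2. It also lay below the control mean, by a log2 difference of -1.35 (SE 0.24, 95% interval -1.89 to -0.81, adjusted p = 0.00241).

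**Figure D1:**
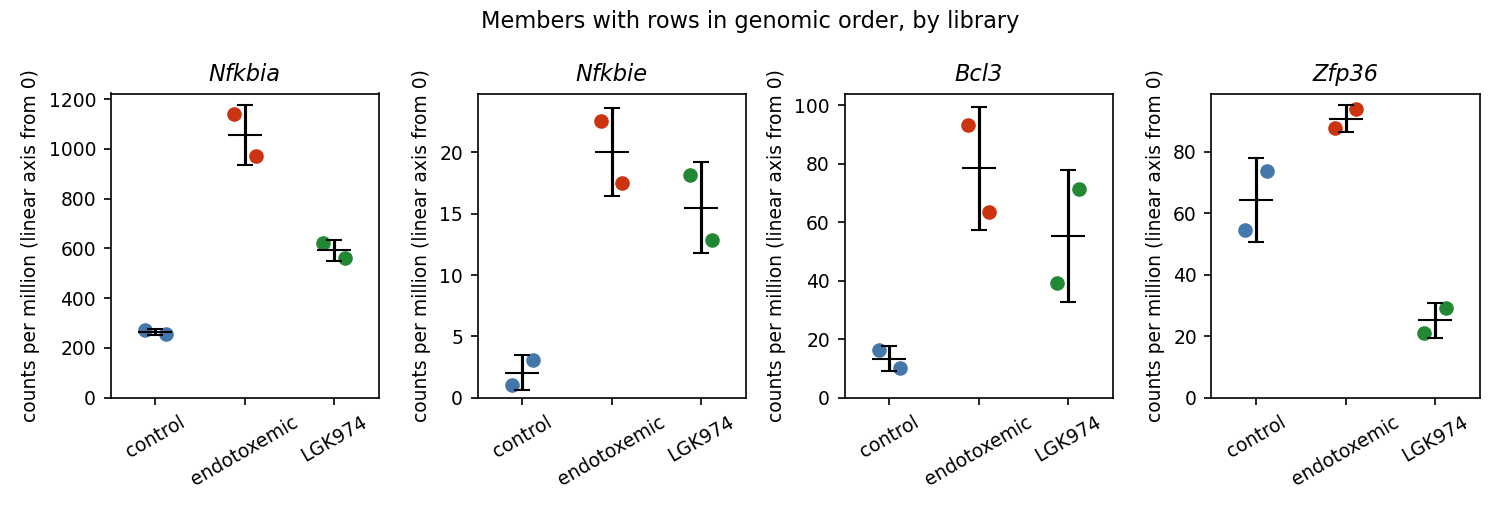
CPM of *Nfkbia*, *Nfkbie*, *Bcl3* and *Zfp36* (vertical axes, linear from 0) in the control, endotoxemic and LGK974 groups. Each point is 1 distinct library, and the bars are the mean and SD of n = 2. The endotoxemic libraries of *Nfkbia* lie at 1141 and 971 CPM, above all others, and the LGK974 libraries of *Zfp36* lie at 21.2 and 29.2 CPM, below all others.

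Against control, 3 of the 4 members in order were higher in the endotoxemic group and none was lower, while 19.2% of the 11902 rows in order that were tested were called higher and 22.7% lower. Against the endotoxemic group, none of the 4 was called higher in the LGK974 group and 2 were called lower, *Nfkbia* and *Zfp36*, beside 2.83% and 2.62% of the rows. Against control, 3 of the 4 were higher in the LGK974 group and 1, *Zfp36*, was lower, beside 15.2% and 17.2% of the rows. No member in order changed in the directions with a count of none at an unadjusted p of 0.05 or with DESeq2 either. The median log2 difference of the 4 members was 2.28, -0.67 and 1.61 in these comparisons, and that of the rows in order was 0.00, 0.04 and 0.01. The comparisons share libraries, so that a change in 1 group moves 2 of them.

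**Figure D2:**
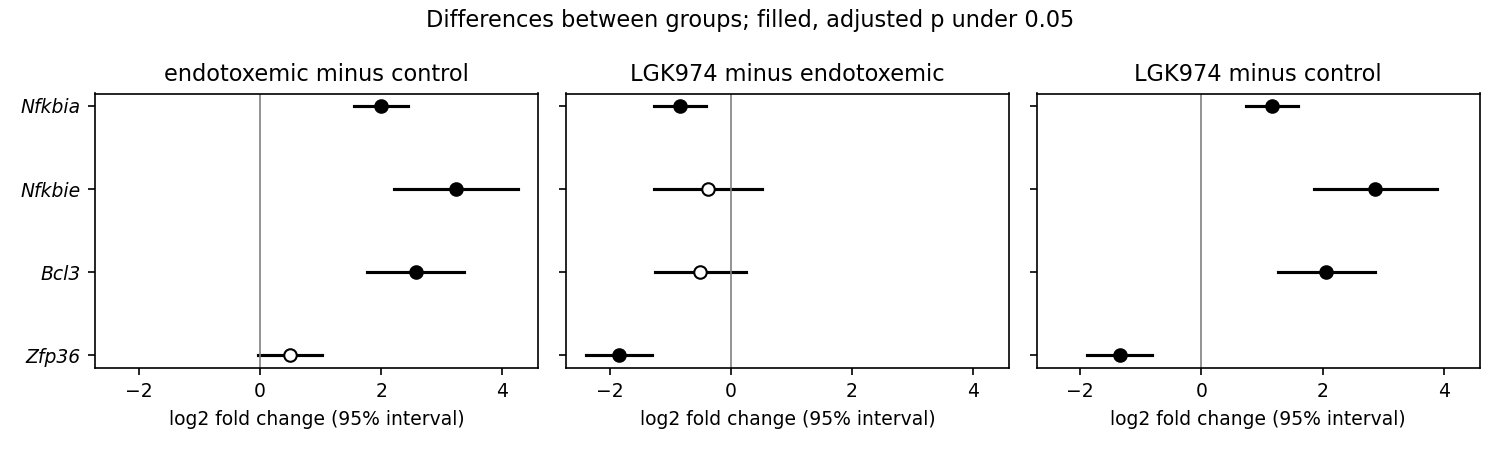
Log2 fold change (horizontal axis) of the 4 members in order with its 95% interval in each comparison. Filled points passed an adjusted p of 0.05. *Zfp36* stands at -1.85 between the LGK974 and endotoxemic groups and at -1.35 between the LGK974 and control groups, while the other 3 stand at 1.16 to 2.86 in the latter.

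The balance between the members was also read within each library, as counts per 1000 counts of *Nfkbia*, which does not depend on the scaling between libraries. *Zfp36* had 201 and 288 in control, 76.8 and 96.8 in endotoxemic and 34.1 and 51.9 in LGK974 livers. *Nfkbie* had 3.76 and 12, then 19.8 and 18, then 29.2 and 22.9. *Bcl3* had 60.1 and 40.3, then 81.9 and 65.6, then 63.4 and 127. Relative to *Nfkbia*, *Zfp36* was thus highest in the control and lowest in the LGK974 group and *Nfkbie* the reverse, whereas the endotoxemic and LGK974 values of *Bcl3* overlapped. These ratios also carry the change of *Nfkbia*, whose mean was 1056 CPM in the endotoxemic and 592 CPM in the LGK974 group. The levels of *Nfkbie* itself overlapped between these groups, with the lower mean in the LGK974 group.

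The rows most like the mean profile of the 4 members over the 6 libraries, among 11898 candidates, were *Ahi1*, *Hcls1* and *Lpgat1*, at distances of 0.252, 0.28 and 0.305 on the centred log2 CPM scale. The members themselves lay farther from their own mean profile, from 0.361 for *Nfkbia* through 1.176 for *Bcl3* and 2.055 for *Nfkbie* to 2.599 for *Zfp36*. The mean profile was nearest to *Nfkbia* and farthest from *Zfp36*.

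The 5 members out of genomic order are given as counts under their own symbol, followed by the row that stands at the place of the gene in the row order. Each such place held 1 row with no neighbour nearby. *Nfkb2* encodes the p100 precursor, which retains NF-κB dimers through its IκB-like end and is processed to p52 (ENSMUSG00000025225.15, chr19:46304320-46312385, plus strand). Its row stood between *Dkk4* and *A930013F10Rik* on chromosome 8 and had 68 and 107 counts in control, 229 and 249 in endotoxemic and 337 and 321 in LGK974 livers. The row between *Gbf1* and *Psd*, where *Nfkb2* lies, was named *Pik3cg* and had 10 and 14, then 700 and 994, then 382 and 412 counts. The row with the symbol had more counts than the row at the place in both control libraries and fewer in the other 4.

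*Nfkbiz* encodes IκBζ, a nuclear IκB protein that helps switch on late genes such as *Il6* (ENSMUSG00000035356.17, chr16:55811375-55838899, minus strand). The row with its symbol had 16 and 56 counts in control, 51 and 53 in endotoxemic and 28 and 43 in LGK974 livers. The row at its place, named *Gata3*, had 8 and 12, then 877 and 879, then 869 and 620 counts. *Gata3* encodes a transcription factor of T cells. The row at the place had fewer counts than the row with the symbol in the control libraries and more in the other 4.

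*Tnfaip3* encodes A20, which edits ubiquitin chains on signaling proteins upstream of the IκB kinase (ENSMUSG00000019850.11, chr10:19000910-19015657, minus strand). Its symbol had 3 and 11 counts in control, 0 and 1 in endotoxemic and 5 and 0 in LGK974 livers, and it did not pass the filter on low counts. The row at its place, named *Cela1*, a digestive elastase, had 316 and 469, then 452 and 353, then 484 and 159 counts. *Tnip1* encodes ABIN-1, a ubiquitin-binding partner of A20 (ENSMUSG00000020400.17, chr11:54910785-54962917, minus strand). Its symbol had 111 and 105 counts in control, 1061 and 768 in endotoxemic and 948 and 916 in LGK974 livers, and the row at its place, named *Mfhas1*, had 392 and 535, then 923 and 765, then 941 and 688. The row at the place of *Tnip1* had more counts than the row with the symbol in the control libraries and fewer in the other 4.

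*Zc3h12a* encodes regnase-1, an endonuclease that cuts stem-loops in cytokine mRNAs (ENSMUSG00000042677.7, chr4:125118423-125127840, minus strand). Its symbol had 13 and 25 counts in control, 0 and 1 in endotoxemic and 1 and 5 in LGK974 livers. At its place the row named *Jun* had 590 and 937, then 370 and 273, then 636 and 309 counts. No change between groups is given for these 5 members, because the label and the place of the row name different genes.

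**Figure D3:**
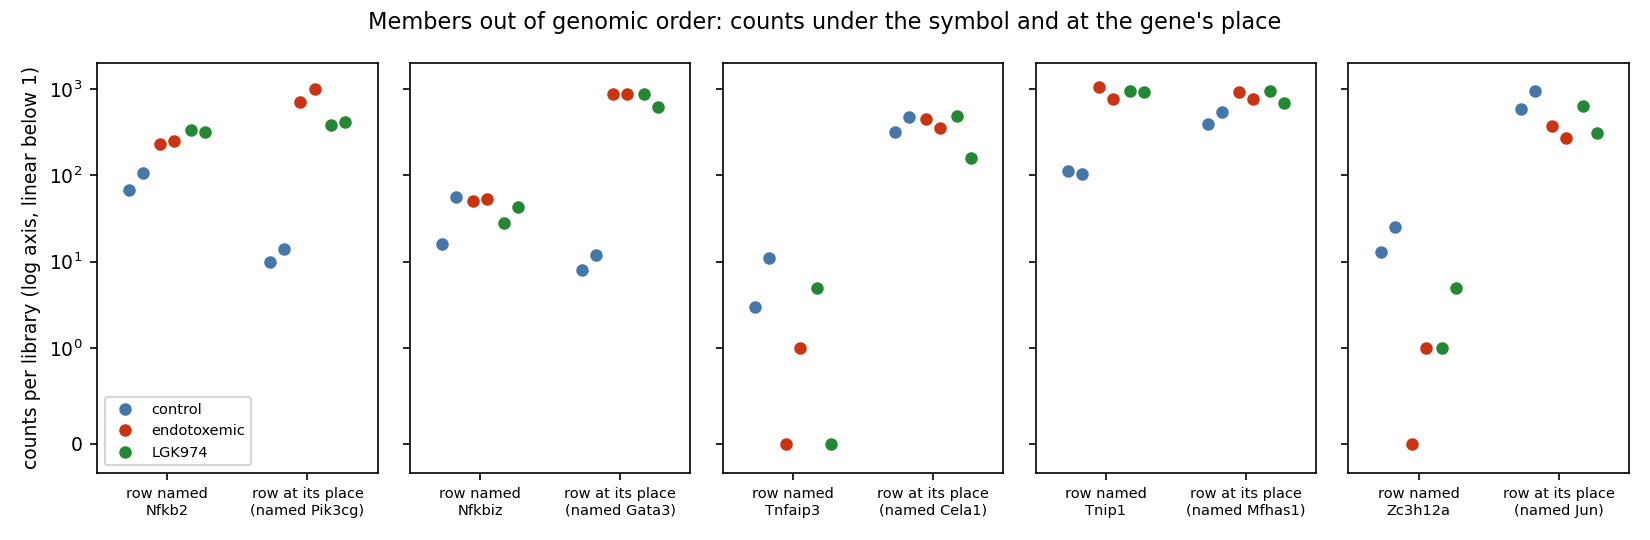
Counts per library (vertical axis, logarithmic above 1 and linear below) of the 5 members out of genomic order, under the symbol and in the row at the place of the gene. Each point is 1 distinct library, coloured by group. The control libraries of the row at the place of *Nfkbiz* lie at 8 and 12 counts and its endotoxemic libraries at 877 and 879, while under the symbol all 6 lie between 16 and 56.

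The κB consensus also stood in windows of 3 members out of order. *Nfkb2* had a match in each of its 3 windows, *Tnip1* had overlapping matches between 58 and 47 bases before its start, and *Tnfaip3* had 2 matches before 1 of its 2 starts. By the GENCODE coordinates the *Nfkb2* windows lie inside the span of the gene, and windows 2 and 3 overlap. The *Tnfaip3* window with matches lies almost wholly inside the span of its gene. *Zc3h12a* had none.

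The other genes of the pathway were read from 9 lists with 117 genes, of which 71 were in genomic order and 68 were tested. Between the endotoxemic and control groups 35 were higher and 4 lower, between the LGK974 and endotoxemic groups 1 was higher and 11 lower, and between the LGK974 and control groups 24 were higher and 4 lower. The corresponding shares of all rows in order were 19.2% and 22.7%, 2.83% and 2.62%, and 15.2% and 17.2%. The median log2 differences of the pathway genes were 0.92, -0.48 and 0.46. Of the IκB relatives, *Nfkbib*, which encodes IκBβ, rose like the 3 members, by 1.76 in the endotoxemic group (adjusted p = 0.00287). *Nfkb1*, which encodes the p105 precursor of p50, rose by 1.79 (adjusted p = 0.000778), was lower in the LGK974 than in the endotoxemic group by a log2 difference of -1.46 (adjusted p = 0.0185) and did not pass the test against control (0.32, adjusted p = 0.392).

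Of 9 tested feedback inhibitors that act beside the members, 7 rose and 1 fell in the endotoxemic group. The largest rises were those of *Ier3*, an immediate early survival gene (7.22), *Socs1*, an inhibitor of cytokine receptor kinases (7.16), and *Irak3*, which blocks Toll-like receptor signaling (6.64), with adjusted p of 1.98e-05, 1.77e-05 and 3.19e-05. *Tsc22d3*, a glucocorticoid-induced inhibitor of NF-κB, fell by 2.70 (adjusted p = 4.61e-05) and was higher in the LGK974 than in the endotoxemic group by 1.58 (adjusted p = 0.0107). In that comparison *Atf3* (-2.46, adjusted p = 0.0385), *Gadd45b* (-2.24, adjusted p = 0.00603) and *Socs1* (-1.94, adjusted p = 0.0284) were lower, as *Nfkbia* and *Zfp36* were. Of 15 tested ubiquitin-editing genes, the companions of *Tnfaip3* and *Tnip1*, 4 rose in the endotoxemic group, a share near the 19.2% of all rows in order. Among them *Birc2* and *Birc3*, ubiquitin ligases of the TNF receptor complex, rose by 2.96 and 2.44 (adjusted p = 2.42e-05 and 0.000274), and *Tnip3* had no count in the control libraries and 17 and 22 counts in the endotoxemic libraries. *Birc2* was lower in the LGK974 than in the endotoxemic group (-1.16, adjusted p = 0.023).

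Of 8 tested kinases upstream of NF-κB, 5 rose in the endotoxemic group, led by *Map3k8* (5.38, adjusted p = 0.000226), *Map3k14* (3.97, adjusted p = 0.000275) and *Ikbke* (2.13, adjusted p = 0.000279). Between the LGK974 and endotoxemic groups their log2 differences ran from -1.01 for *Ikbke* (adjusted p = 0.0568) to 0.14 for *Tab3* (adjusted p = 0.913). Of 7 tested receptors and adaptors, 4 rose and *Irak1* fell (-0.77, adjusted p = 0.0123), and *Ripk1* was lower in the LGK974 than in the endotoxemic group (-1.25, adjusted p = 0.0282). Of 8 other NF-κB targets, 6 rose, among them *Lcn2*, an iron-sequestering acute-phase protein (7.89, adjusted p = 6.28e-07). In the LGK974 group *Bcl2a1b* (-1.59, adjusted p = 0.0229) and *Bcl2l1* (-1.16, adjusted p = 0.0464), both survival genes, were lower than in the endotoxemic group. The other 6 of these 8 targets, with *Lcn2* among them (-0.49, adjusted p = 0.264), did not pass this test.

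**Figure D4:**
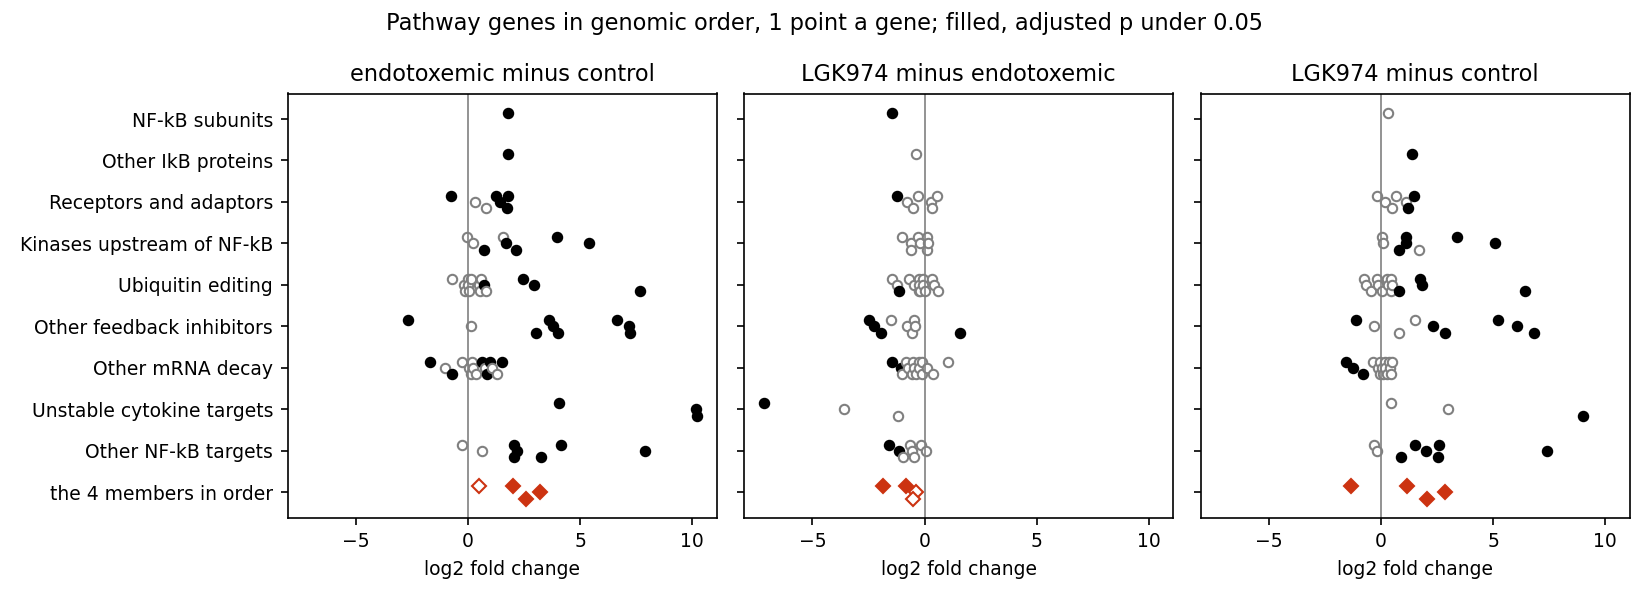
Log2 fold change (horizontal axis) of each tested pathway gene in genomic order, by list, in the 3 comparisons, with the 4 members as diamonds in the lowest line. Filled points passed an adjusted p of 0.05, and the fitted values of *Csf3*, *Ifng* and *Tnip3*, with no count in the control libraries, depend on the prior count. Of 68 pathway genes 35 were higher in the endotoxemic than in the control group, and 11 were lower in the LGK974 than in the endotoxemic group.

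Of the relatives of *Zfp36*, *Zfp36l1* was lowest in the LGK974 group and *Zfp36l2* fell in the endotoxemic group. *Zfp36l1*, which encodes another protein that binds AU-rich elements, had 2371 and 3641 counts in control, 2440 and 2423 in endotoxemic and 1364 and 1301 in LGK974 livers. Like *Zfp36* it did not pass the test between the endotoxemic and control groups (0.20, adjusted p = 0.417) and the LGK974 group lay below both the endotoxemic group (-1.46, SE 0.19, adjusted p = 0.00504) and the control group (-1.26, SE 0.19, adjusted p = 0.000901). *Zfp36l2*, the other relative, had 494 and 438, then 99 and 115, then 167 and 180 counts. It fell in the endotoxemic group (-1.69, SE 0.28, adjusted p = 0.00124), and its difference between the LGK974 and endotoxemic groups was 0.10 (SE 0.28, adjusted p = 0.861). Of the 16 tested genes of mRNA decay other than the members, 4 rose and 2 fell in the endotoxemic group, beside 19.2% and 22.7% of all rows in order, 2 were lower in the LGK974 than in the endotoxemic group, beside 2.62%, and 3 were lower in the LGK974 than in the control group, a share near the 17.2% of all rows in order. *N4bp1*, an RNA endonuclease related to regnase-1, rose by 1.5 (adjusted p = 0.000945) and was lower in the LGK974 than in the endotoxemic group (-1.06, adjusted p = 0.034). The deadenylase subunit *Cnot8* fell in the endotoxemic group (-0.71, adjusted p = 0.0416).

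**Figure D5:**
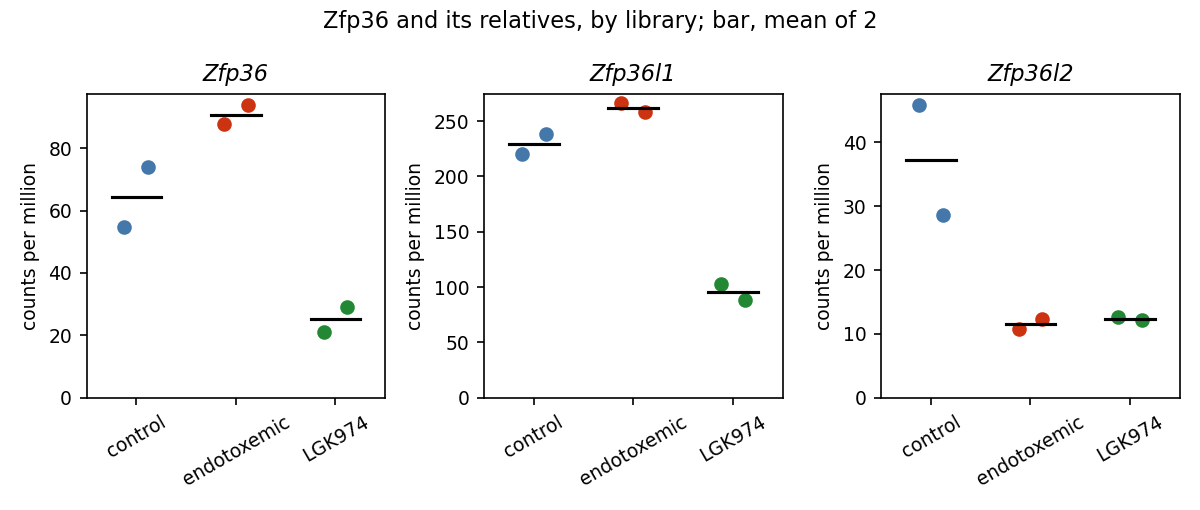
CPM (vertical axes, linear from 0) of *Zfp36*, *Zfp36l1* and *Zfp36l2* in each distinct library, with the mean of 2 libraries as a bar. *Zfp36* and *Zfp36l1* are lowest in the LGK974 libraries, while *Zfp36l2* is as low in the endotoxemic libraries (mean 11.5 CPM) as in the LGK974 libraries (mean 12.4 CPM).

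Of 18 transcripts of cytokines and inflammatory enzymes known to be unstable, 5 were in order and 3 of these were tested, and all 3 rose in the endotoxemic group. *Csf3*, the granulocyte growth factor, had no count in control, 101 and 128 counts in endotoxemic and 85 and 64 in LGK974 livers. *Ifng*, the interferon of T and NK cells, had no count in control, 93 and 127 in endotoxemic and 2 and 0 in LGK974 livers, which was lower than in the endotoxemic group (adjusted p = 0.00399). *Il12b*, a subunit of interleukin 12, had 0 and 2, then 17 and 9, then 0 and 3 counts. Between the LGK974 and endotoxemic groups *Csf3* (-1.2, adjusted p = 0.101) and *Il12b* (-3.61, adjusted p = 0.113) did not pass the test.

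Markers of other cell types were read in the same rows in order, and their part in the changes of the members was not tested. The summed CPM of 3 of 5 monocyte markers was 11.7 to 13.3 in control, 162 to 192 in endotoxemic and 128 to 142 in LGK974 livers, and that of 3 of 7 neutrophil markers was 1.76 to 2.35, 56.5 to 70.8 and 33.1 to 34.5. Both sums had the order of *Nfkbia*, but 0 of 3 monocyte and 0 of 3 neutrophil markers were called between the LGK974 and endotoxemic groups. Between the endotoxemic and control groups 2 of 3 and 3 of 3 were called higher. Of the 5 Kupffer cell markers in order, 2 fell in the endotoxemic group, *Clec4f* (-0.89, adjusted p = 0.0124) and *Vsig4* (-2.76, adjusted p = 0.000352), and *Marco* rose (3.7, adjusted p = 1.89e-05). Their sum was 95.5 to 101, 117 to 138 and 85.5 to 119 CPM, which included *Marco* at means of 6.57, 85.5 and 79.0 CPM. Between the LGK974 and endotoxemic groups 1 of these 5, *Clec4f* (-1.3, adjusted p = 0.0187), and 1 of 6 markers of sinusoidal endothelium, *Clec4g* (-2.19, adjusted p = 0.0163), were lower. The others did not pass the test, with log2 differences up to 0.37 for *Lyve1* and with *Vsig4* at -1.11 (adjusted p = 0.13). The median log2 difference was -0.51 for the 5 Kupffer cell markers and -0.39 for the 6 of sinusoidal endothelium. Of the 6 markers of sinusoidal endothelium, 4 fell and 1 rose in the endotoxemic group, among them *Clec4g* (-3.49, adjusted p = 5.31e-05) and *Lyve1* (3.03, adjusted p = 1.81e-05), and against control 5 were lower and 1 was higher in the LGK974 group. Their sum of 285 to 286, 419 to 439 and 462 to 541 CPM included *Lyve1* at means of 42.6, 348 and 449 CPM, the 1 marker of the list that rose. Of 5 stellate cell markers, 3 fell and 1 rose in the endotoxemic group. The sum of 4 cholangiocyte markers was 19.4 to 21.1 CPM in control, 8.95 to 9.6 in endotoxemic and 13.4 to 21 in LGK974 livers, and 1 of the 4 fell in the endotoxemic group. The sum of 6 T and NK cell markers was 4.25 to 4.36, 5.56 to 8.53 and 2.57 to 3.55, which included *Gzma* at means of 1.69, 4.95 and 1.84 CPM, with *Ncr1* at 0 counts in every library, and that of 4 B cell markers was 2.22 to 4.36, 2.07 to 3.73 and 0.0755 to 0.677. Of the hepatocyte transcripts that check the labelled tissue, *Alb*, *Apoa1* and *Ttr* fell in the endotoxemic group (-1.17, -1 and -1.48, with adjusted p of 0.0138, 0.00437 and 0.000465) and *Fgb* rose (2.08, adjusted p = 0.000145), while the 4 together had 66700 CPM or more in every library.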

How the data were processed

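Liver RNA was sequenced with the Lexogen QuantSeq 3′ method. The authors deposited counts of reads per gene symbol as whole numbers without normalization, and the submitters' processing notes name Bowtie2, edgeR and mm10; versions are not given in the sources used here. Members and gene lists were chosen with earlier results of these data known. Named pathway genes are at most the 3 largest rises and 3 largest falls past the threshold in a list, beside *Tab3*, the upper end of a range, and marker genes, which were chosen after their values were seen.

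Row order was compared with RefSeq positions on GRCm38.p6, and gene coordinates are those of GENCODE vM21. Libraries with identical counts were counted once. Counts were filtered with filterByExpr, scaled by TMM and fitted in 1 quasi-likelihood model of the group over 6 libraries with edgeR 4.0.16 in R 4.3.3, with Benjamini-Hochberg adjustment at 0.05. The SE was derived from the F value. All 3 groups shared 1 estimate of the spread. Total counts per library were 9142116 to 15222439, and the common biological coefficient of variation was 0.239. The model was tested on simulated data with known changes of 200 among 12396 rows in the endotoxemic group. It called 16.3% of the rows changed by a fold of 2 and 16.3% of those changed by 0.5. For folds of 4 and 0.25 it called 98% and 81.6%, and 6.25% of all calls were false. Alternatives were other filters (none, or at least 10 counts in every library), DESeq2 1.42.0, other scalings, a replicate block, leaving out each library, fitting only the groups compared, and other windows for row order.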

Additional observations from a re-analysis of the deposited data

How the results depend on the processing

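No direction of the 4 members in order reversed under the alternatives run, and 169 of the members' values kept their side of the threshold, while 5 newly passed it and 6 no longer did. The cause was not tested.

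The difference of *Zfp36* between the endotoxemic and control groups passed the test with the identical libraries as separate samples (0.49, adjusted p = 0.0296), with only those groups fitted (0.53, adjusted p = 0.0241) and without LGK974 library 1 or 2, and it ranged from 0.29 to 0.73 when a library was left out. Between the LGK974 and endotoxemic groups, *Nfkbia* no longer passed with only those groups fitted (-0.83, adjusted p = 0.0976) or without an endotoxemic or control library (-0.95 to -0.74). *Zfp36* no longer passed without endotoxemic library 2 (-1.8, range -2.1 to -1.64 over the libraries left out), and *Bcl3* passed without LGK974 library 2 (-0.99, range -0.99 to -0.13). Without control library 2, *Nfkbie* moved to 4.28 and 3.91 above the control group, and without control library 1 to 2.7 and 2.33. Members called between the LGK974 and endotoxemic groups numbered 2, but 0 to 1 without an endotoxemic or control library, 3 without LGK974 library 2 and 1 with only those groups fitted.

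Rows called between the LGK974 and endotoxemic groups numbered 714. They numbered 1705 without a filter, 1124 with DESeq2, 3259 with identical libraries as separate samples, 269 with only those groups fitted, and 49 to 2242 when a library was left out, the lowest without endotoxemic library 2 and the highest without LGK974 library 1. Rows called between the endotoxemic and control groups numbered 5513, and 3432 without control library 1, 3530 without endotoxemic library 1 and 3527 without endotoxemic library 2, and at most 6719 when any 1 library was left out. Those between the LGK974 and control groups numbered 4328, and 2372 and 2498 without control library 1 and 2, and at most 5369 when any 1 library was left out.

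The labels do not say what same-numbered libraries shared. Their deviations from the group mean correlated at 0.14 (control and endotoxemic), -0.007 (control and LGK974) and 0.061 (endotoxemic and LGK974). With 2 libraries a group these values cannot tell whether a number stands for a batch, which was not tested. With the replicate number as a block the members called were 3, 2 and 4 in the 3 comparisons, and *Zfp36* had -1.87 between the LGK974 and endotoxemic groups. The same 4 members were in order under each of the 3 other windows.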
